A study of Mus musculus with 3 samples.

Results

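Notch signalling passes between touching cells. A transmembrane ligand (Jagged or Delta-like) on one cell binds a Notch receptor on its neighbour, the receptor is cut by an ADAM protease and then by gamma-secretase, and the freed intracellular part joins the DNA-binding protein RBPJ and a Mastermind coactivator to switch on repressor genes of the Hes and Hey families. The pathway is known for its part in arteries, in the smooth muscle cells and pericytes of vessel walls, and in the patterning of kidney nephrons. Described here are the genes of 3 Notch receptors (Notch1, Notch2, Notch3), 4 ligands (Jag1, Jag2, Dll1, Dll4) and 3 targets (Hes1, Hey1, Heyl) in the embryonic mouse ureter, the muscular tube through which urine leaves the kidney. They were chosen by name, as every probe set annotated with exactly 1 of these symbols, which gave 19 probe sets for 10 genes among 18194 named genes on the array.

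The series holds 1 group of 3 samples, named replicates 3, 8 and 9: whole ureters from FVB/N embryos, wild-type and of unknown sex, at embryonic day 15 (Theiler stage 23), cut out between renal pelvis and bladder and not pooled. RNA went through 2 rounds of amplification and was hybridised to 1-colour Affymetrix Mouse Genome 430 2.0 arrays. There was no second group, so levels are described with the spread between samples and no difference between conditions was tested. Nothing in the labels ties the samples to separate embryos or litters, so this spread may be partly technical, and with 3 arrays every level is imprecise.

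A value is the deposited signal, a linear intensity that each array's scaling makes relative to the rest of that array. A gene counted as above background where its brightest probe set exceeded, on each of the 3 arrays, the 95th percentile of 49 measured genes known from organs that the dissection did not take (for example retina, testis and pituitary). That level was 231, 236 and 260 signal units in replicates 3, 8 and 9. The lists used to check the labelled tissue had 7 of 7 ureteric mesenchyme genes, 7 of 10 smooth muscle genes and 8 of 11 urothelium genes above background. Of all named genes 61.6% were, so the smooth muscle and urothelium counts say little about the tissue. Of the uroplakin genes on the list, Upk1b was above background (2544, 1816 and 938 in replicates 3, 8 and 9). Upk1a, which exceeded it on 2 arrays, and Upk2 and Upk3a were not. Genes of tissues other than ureter were above background as well, 5 of 6 for skeletal muscle (summed signals of 55334, 48675 and 49861 in replicates 3, 8 and 9) and 4 of 4 for hepatocytes, and the part of such RNA in the Notch gene levels was not tested. The brightness of a probe set also depends on its sequence and its place in the transcript, so signals of different genes do not rank transcripts. In a whole ureter, fewer cells of a type and less RNA per cell cannot be told apart.

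Of the 10 Notch genes, 9 were above background, against 61.6% of all named genes. These were all 3 receptors, the ligands Jag1, Jag2 and Dll1, and all 3 targets, and the exception was the ligand gene Dll4. Counted by probe set, 10 of 19 were above background, against 50.5% of all probe sets with 1 symbol, and 5 of the 19 were below it on every array. Of the 7 Notch genes with several probe sets, 6 had probe sets on both sides of background, against 55.3% of all genes with several probe sets. Both counts include genes with no probe set above background, such as Dll4, which cannot lie on both sides. The share among detected genes alone is not given here.

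**Figure D1:**
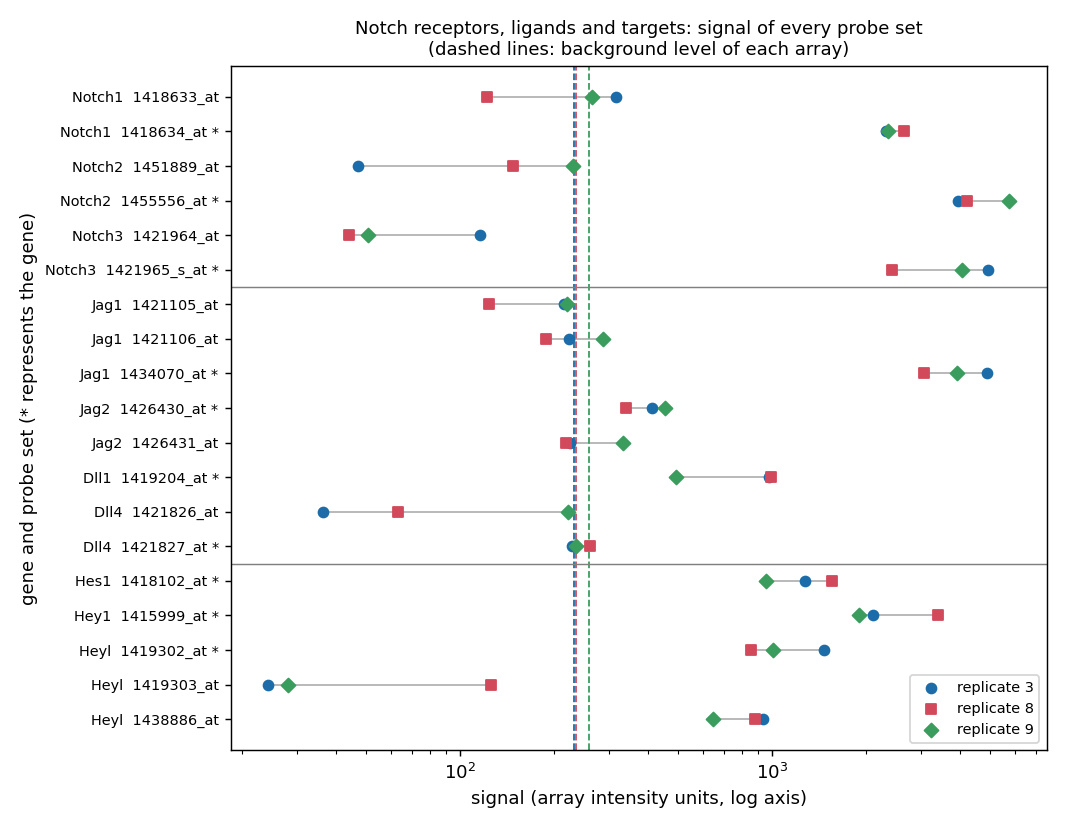
Signal (array intensity units, log axis) of the 19 probe sets of the Notch genes in replicates 3, 8 and 9, 1 point per array, with grey lines joining the points of a probe set, dashed lines at the background level of each array and asterisks on the probe set that represents each gene. Receptors, ligands and targets are separated by horizontal lines. For Notch1, Notch2, Notch3 and Jag1 1 probe set lies between 2309 and 5761 on every array and the others lie at or below 315, whereas both Dll4 probe sets lie at or below the dashed lines on most arrays.

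Notch1 encodes a widely expressed receptor that is needed for the vasculature of the embryo. Its representing probe set gave 2309, 2645 and 2347 in replicates 3, 8 and 9 (mean 2434 ± 184, SD, n = 3). The arrays lay close together, with a range of 0.20 on the log2 scale (highest minus lowest), narrower than that of most genes above background (percentile 9.11). The other Notch1 probe set gave 315, 122 and 265, above background on 2 arrays and lowest in replicate 8, where the bright probe set was highest.

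Notch2, the gene of a receptor known for its part in forming the proximal nephron, had signals of 3944, 4210 and 5761 in replicates 3, 8 and 9 (mean 4639 ± 981, SD, n = 3). Replicate 9 was the high array, and the range of 0.55 lay near the median of 0.55 over all genes above background. The other Notch2 probe set gave 47.0, 148 and 229, below background on every array, with the same highest and lowest array.

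Notch3 encodes the receptor of smooth muscle cells and pericytes around vessels. Its signals were 4933, 2416 and 4073 in replicates 3, 8 and 9 (mean 3807 ± 1279, SD, n = 3), so that replicate 8 was the low array. The highest value was 2.04 times the lowest (log2 range 1.03, percentile 85.1). The probe set behind these values ends in _s_at, a suffix for probes that can match transcripts of more than 1 gene. The other Notch3 probe set gave 116, 44.2 and 50.5, below background on every array, so that without probe sets ending in _s_at or _x_at Notch3 was above background on 0 of 3 arrays.

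Jag1 encodes the ligand Jagged1, which is known for its part in the vessel wall and the nephron. Its representing probe set gave signals of 4896, 3060 and 3921 in replicates 3, 8 and 9 (mean 3959 ± 919, SD, n = 3), with replicate 8 the low array and a range of 0.68. The remaining probe sets were dim, at 216, 124 and 220 and at 223, 188 and 287, above background on 0 and 1 arrays. Replicate 8 was lowest in all 3 Jag1 probe sets, while the highest array differed between them.

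Jag2, the gene of the second Jagged ligand, lay closer to background, with signals of 412, 339 and 453 (mean 401 ± 57, SD, n = 3) and a range of 0.41. The values stayed above background on all 3 arrays and were lowest in replicate 8. The other Jag2 probe set gave 225, 219 and 332, above background in replicate 9 alone, with the same highest and lowest array.

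Dll1 encodes the ligand Delta-like 1, known for its part in somites, neural progenitors and nephron formation, and had a single probe set. It gave signals of 976, 993 and 492 in replicates 3, 8 and 9 (mean 820 ± 285, SD, n = 3). Replicates 3 and 8 lay together and replicate 9 was the low array, the highest value being 2.02 times the lowest (log2 range 1.01, percentile 84.2). Without replicate 9 the range was 0.025.

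Dll4 encodes the ligand Delta-like 4 of arteries and sprouting capillaries. Its brighter probe set gave signals of 228, 260 and 236 in replicates 3, 8 and 9 (mean 241 ± 17, SD, n = 3), at the background level, which only replicate 8 exceeded. This call turned on the threshold, since Dll4 was above background on 3 of 3 arrays with the 90th percentile of the reference genes and on 0 of 3 with the 99th. The other probe set gave 36.4, 63.2 and 222, below background on every array. Of 12 endothelial genes, 9 were above background, all but Flt1, Pecam1 and Tie1. The summed signals of this list were 22422, 22949 and 17162 in replicates 3, 8 and 9. Of 6 arterial genes 4 were above background, with summed signals of 17408, 26968 and 34290. The share of all named genes above background was 61.6%. The guidance receptor gene Nrp1 made up 9163, 13293 and 23380 of the arterial sums, whereas the connexin gene Gja4 was highest in replicate 3 (617, 283 and 449), and the arterial connexin gene Gja5 was below background on every array. The part of these cells in the Dll4 level was not tested.

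The upstream sequences of Jag1, the ligand gene with a bright probe set on all arrays, and Dll4, the ligand gene at background, are shown to set these ligands side by side. They are the 250 bases before the RefSeq gene start (GRCm38.p6), read in the direction of transcription, at chr2:137116521-137116770 on the minus strand for Jag1 and chr2:119325534-119325783 on the plus strand for Dll4. Capitals mark matches to the GC box bound by Sp1-like factors (GGGCGG), the N box bound by Hes repressors (CACNAG) and the CCAAT box (CCAAT), on either strand.
Jag1: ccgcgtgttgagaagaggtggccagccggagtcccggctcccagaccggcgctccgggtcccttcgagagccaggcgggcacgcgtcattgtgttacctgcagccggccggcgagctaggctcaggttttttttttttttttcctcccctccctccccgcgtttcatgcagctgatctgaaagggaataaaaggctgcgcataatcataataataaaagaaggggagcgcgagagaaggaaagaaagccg
Dll4: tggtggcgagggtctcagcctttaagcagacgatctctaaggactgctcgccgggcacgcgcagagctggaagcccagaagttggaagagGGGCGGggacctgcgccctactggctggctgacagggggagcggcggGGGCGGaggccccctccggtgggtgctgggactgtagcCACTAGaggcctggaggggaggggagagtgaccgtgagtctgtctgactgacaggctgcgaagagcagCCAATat

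The Dll4 window held 2 GC boxes, 1 N box and 1 CCAAT box, and the Jag1 window held none of the 3 motifs. Its GC content was 57.2%, against 65.6% for Dll4. RefSeq windows were matched for 7 of the 10 Notch genes, giving 8 windows because Dll1 has 2 listed starts, and Hes1, Hey1 and Heyl were not matched. The GC box was found in 5 of the 8 windows (32.7% of 32851 mouse windows of the same length held it), the N box in 4 (36.7%) and the CCAAT box in 2 (33.8%). The core of the RBPJ motif (TGGGAA, either strand) was in 0 of the 8 windows and in 21.6% of all, and the longer GTGGGAA, which contains that core, in 0 and in 5.42%. These are matches of letters in a short window and show no binding.

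The 3 target genes encode repressors with a basic helix-loop-helix domain and were all above background. Hes1, known for holding progenitor cells back from differentiation, had signals of 1273, 1560 and 956 in replicates 3, 8 and 9 (mean 1263 ± 302, SD, n = 3), from 1 probe set. Hey1, an effector of Notch in vessels, had signals of 2103, 3409 and 1894 (mean 2469 ± 821, SD, n = 3), also from 1 probe set. For both genes replicate 8 was the high array and replicate 9 the low one, with ranges of 0.71 for Hes1 and 0.85 for Hey1.

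Heyl, a target known from vascular smooth muscle, had signals of 1471, 855 and 1009 in replicates 3, 8 and 9 (mean 1112 ± 321, SD, n = 3, range 0.78). Its second probe set was above background too, at 937, 879 and 645. Both were highest in replicate 3, but the lowest array was replicate 8 by one and replicate 9 by the other. The third Heyl probe set gave 24.3, 126 and 28.2, below background on every array.

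Among the 9 Notch genes above background, 2 had a log2 range of at least 1, Notch3 and Dll1, against 16.2% of all genes above background. Both lay just over that limit, and the next were Hey1 (0.85) and Heyl (0.78). The median range was 0.71 for the 9 genes and 0.55 for all genes above background. Replicate 8 set the range of Notch3, which was 0.28 without it.

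**Figure D2:**
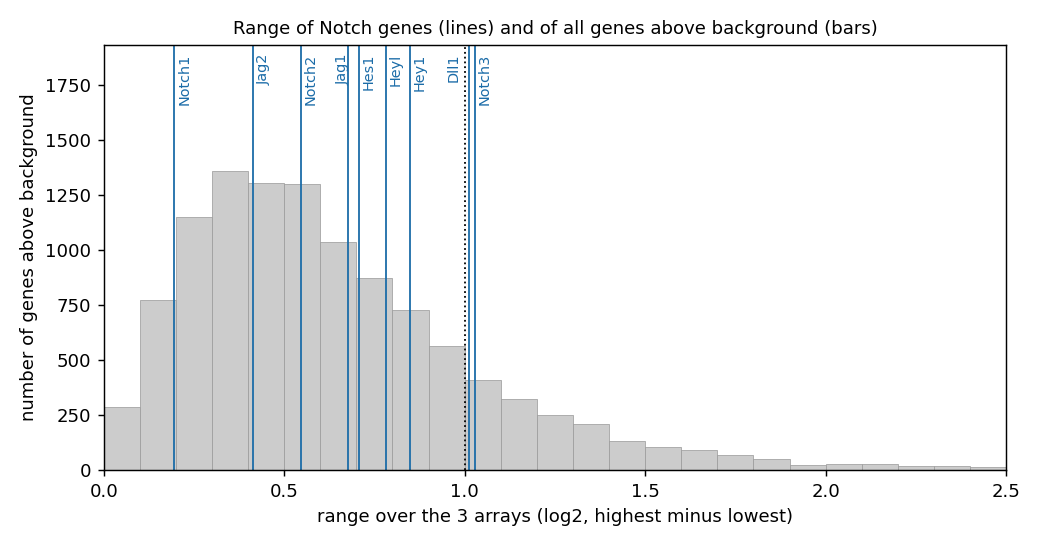
Number of genes above background (bars, 0.1 log2 wide) by their range over the 3 arrays (log2, highest minus lowest), with blue lines at the ranges of the 9 Notch genes above background and a dotted line at 1. The axis ends at 2.5, beyond which lay 47 genes. Notch1 (0.20) stands at the narrow end, most Notch genes fall between 0.41 and 0.85, and Dll1 (1.01) and Notch3 (1.03) lie just right of the dotted line.

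The samples ordered the Notch genes in different ways. Notch3, Jag1 and Heyl, by their representing probe sets, were highest in replicate 3 and lowest in replicate 8. Their deviations from the 3-array mean (log2) in replicate 8 were −0.59, −0.35 and −0.34, and in replicate 3 they were 0.44, 0.33 and 0.44. Hes1, Hey1 and Dll1 were highest in replicate 8, with deviations of 0.33, 0.51 and 0.35, and lowest in replicate 9, with −0.37, −0.33 and −0.67. Notch1 and Dll4 were highest in replicate 8 and lowest in replicate 3. Notch2 and Jag2 were highest in replicate 9 and lowest in replicates 3 and 8, respectively. Of the 9 Notch genes above background, 3 were highest in replicate 3 and 4 lowest in replicate 8, against 34.0% and 30.8% of all genes above background. For highest in replicate 8 and lowest in replicate 9 it was 4 and 3, against 34.4% and 38.8%. With 3 samples no correlation was computed.

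Cell type lists differed between the samples as well. By their medians in replicates 3, 8 and 9, the ureteric mesenchyme (−0.38, 0.38 and −0.12), endothelium (0.16, 0.12 and −0.28) and skeletal muscle lists (0.12, −0.08 and −0.17) had neither order described above. The summed signals of the ureteric mesenchyme list (49948, 70278 and 49711), like those of the endothelium list, were highest in replicate 8 and lowest in replicate 9. The pericyte and mural cell list (6 of 7 genes above background, Higd1b below it on every array) had median deviations of 0.17, −0.20 and 0.03 in replicates 3, 8 and 9 and summed signals of 15821, 13526 and 18083. The same order of medians, with larger steps, was seen for erythroid genes (4 of 4 above background, 0.83, −0.65 and 0.04, summed signals 146680, 71584 and 105642), hepatocyte genes (4 of 4, 0.33, −0.45 and 0.09, summed signals 179934, 105608 and 151058) and macrophage genes (6 of 6, 0.42, −0.59 and 0.14, summed signals 18928, 10770 and 25336). The medians of these lists had the order of Notch3, Jag1 and Heyl across the arrays. The summed signals of the erythroid and hepatocyte lists had it too, while those of the pericyte and macrophage lists were lowest in replicate 8 but highest in replicate 9. Among single genes, every hepatocyte gene had that order. Of the pericyte and mural cell genes above background only Abcc9 and Cspg4 did. Rgs5 and Mcam were lowest in replicate 9, and Kcnj8 and Pdgfrb were highest in it. Csf1r and Cx3cr1 of the macrophage list and Hbb-y of the erythroid list were highest in replicate 9, and Mrc1 was lowest in it. The part of these cells in the Notch gene levels was not tested.

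Smooth muscle genes (7 of 10 above background, all but Cnn1, Lmod1 and Myocd) had median deviations of 0.11, 0.32 and −0.33 in replicates 3, 8 and 9 and summed signals of 62155, 64922 and 54187. General epithelial genes (5 of 5) had −0.11, 0.37 and −0.48, with summed signals of 36622, 49541 and 30196. Nephron progenitor and early nephron genes (2 of 6 above background, all but Cited1, Lhx1, Osr2 and Pax8) had 0.02, 0.26 and −0.28, with summed signals of 3177, 3803 and 2591. By medians and by sums these lists were highest in replicate 8 and lowest in replicate 9, the order of Hes1, Hey1 and Dll1. Their single genes did not all have it. Of the smooth muscle genes above background only Actg2 and Mylk did, and Acta2 was lowest in replicate 8 and highest in replicate 9. Krt19 of the epithelial list and Wt1 of the nephron list were highest in replicate 3. The urothelium list was highest in replicate 8 and lowest in replicate 9 by its medians (−0.03, 0.16 and −0.04), while its summed signals of 17863, 22110 and 18363 were lowest in replicate 3. The part of these cells was not tested. The signal of the Gapdh control at its 3′ end over that at its 5′ end, a measure of RNA length, was 18.9, 15.1 and 16.4 in replicates 3, 8 and 9, and that of the Actb control 7.45, 6.50 and 4.0. The Gapdh ratio had the order of Notch3, Jag1 and Heyl, and its part was not tested either.

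**Figure D3:**
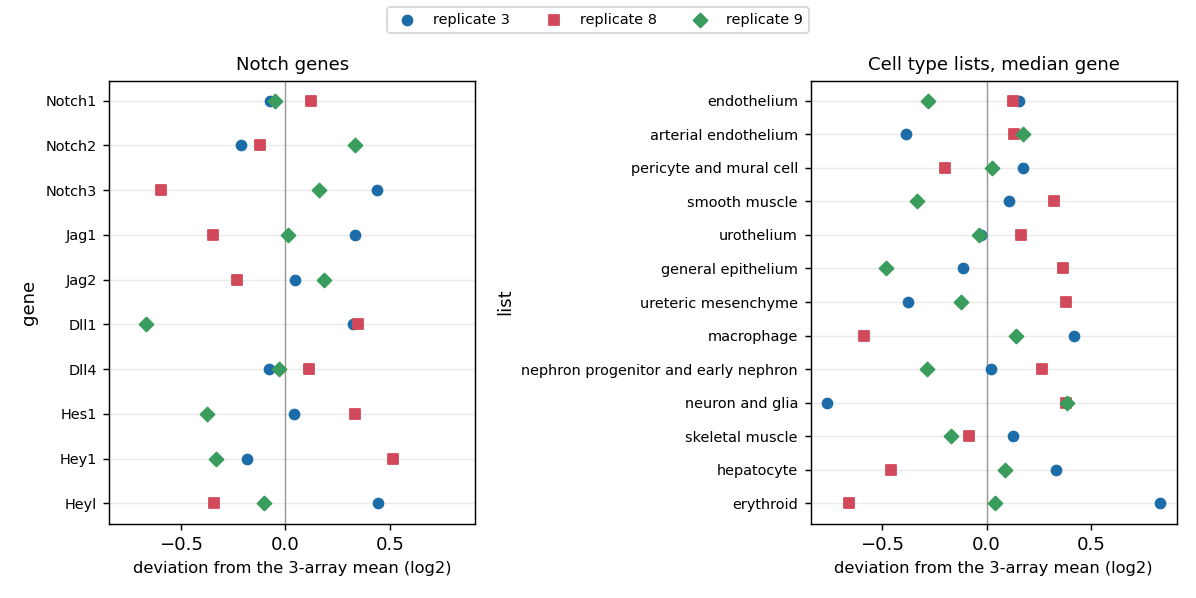
Deviation from the 3-array mean (log2) in replicates 3, 8 and 9 for the 10 Notch genes (left) and for cell type lists (right, median over the genes of the list above background), 1 point per array. Notch3, Jag1 and Heyl have replicate 8 at the low end, as the pericyte, macrophage, hepatocyte and erythroid lists do, whereas Hes1, Hey1 and Dll1 have replicate 8 at the high end and replicate 9 at the low end, as the smooth muscle, general epithelium, urothelium and nephron lists do.

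The rest of the pathway was described through 48 further genes grouped by role, of which 37 were above background (61.6% of all named genes were). The median range of the 37 genes was 0.65, against 0.55 for all genes above background, and 9 of them had a range of at least 1, against 16.2% of all genes above background.

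Notch4, the receptor of endothelial cells, was above background by 1 of its 3 probe sets, at 323, 300 and 280 in replicates 3, 8 and 9. It fell below on at least 1 array with the 99th percentile as threshold, with exocrine pancreas genes among the reference genes (an alternative chosen after seeing the data) and with its probe sets averaged. Dll3, a ligand that acts within the signalling cell, gave 90.5, 59.6 and 247, below background on every array.

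Of 4 non-canonical ligand genes 3 were above background, with a median range of 1.75. Dlk1, an imprinted gene of a Delta-like protein of growing tissues, had signals of 4400, 1413 and 2403 in replicates 3, 8 and 9 (range 1.64), whereas its other probe set, also above background, gave 529, 601 and 799. Dner, a neuronal Delta-like gene, had 319, 2489 and 2156 (range 2.96), and Cntn1, the gene of the neuronal contactin, 813, 2731 and 1232 (range 1.75). In Dner and Cntn1 replicate 3 was the low array. The neuron and glia list had median deviations of −0.76, 0.38 and 0.38 in replicates 3, 8 and 9, over 2 of 4 measured genes above background. These were Stmn2 (−1.41, 0.58 and 0.83) and Elavl4 (−0.11, 0.18 and −0.07). Stmn2 made up 1425, 5676 and 6761 of the summed signals of 3377, 8261 and 9471. Of the genes not above background, Tubb3 was lowest in replicate 3 and Sox10 in replicate 8. The part of this list in the ranges of Dner and Cntn1 was not tested. Dlk2 was above background on 2 arrays (381, 215 and 401).

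All 4 genes of ligand endocytosis were above background. The ubiquitin ligase gene Mib1, needed in the ligand-bearing cell, had signals of 12169, 13207 and 11749, and Neurl1a, the gene of another such ligase, a mean of 1028 ± 285 (SD, n = 3). Mib2 was lowest in replicate 8 (1510, 682 and 1479, range 1.15). Of the genes of fringe and other glycosyltransferases that act on Notch, 4 of 5 were above background. Pofut1, which adds fucose to the EGF repeats of Notch, had a mean of 6120 ± 1816, Rfng 2733 ± 707 and Poglut1, the matching glucosyltransferase, 3838 ± 1479 (SD, n = 3) with a range of 1.21. Lfng, the lunatic fringe gene, was the exception, at 101, 126 and 148, and its second probe set lay between 7.46 and 8.19.

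Of 8 measured genes of receptor cleavage, 7 were above background. Adam10, the gene of the main ligand-dependent protease of Notch, had signals of 17324, 15740 and 11113 in replicates 3, 8 and 9, the gamma-secretase subunit gene Psenen 10063, 8820 and 14906, and Adam17 a mean of 3268 ± 247 (SD, n = 3). The catalytic subunit gene Psen2 was high in replicate 9 (287, 290 and 723, range 1.33) and was not above background with the 99th percentile as threshold or with its probe sets averaged. The subunit gene Aph1a was high in replicate 8 (1456, 2646 and 1282, range 1.05) by a probe set ending in _s_at. Its other probe sets, above background too, were highest in replicate 9, at 346, 327 and 802 and at 461, 617 and 1131. Ncstn, which encodes the gamma-secretase subunit nicastrin, was below background on every array, at 189, 106 and 163.

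In the nucleus, 4 of 6 measured genes were above background. Rbpj, the gene of the DNA-binding protein through which Notch acts, had signals of 15804, 16882 and 13122, and its other probe sets were above background on all arrays too. The cofactor gene Snw1 had a mean of 11800 ± 2126 and the acetyltransferase gene Kat2b 5770 ± 845 (SD, n = 3), the latter from a probe set ending in _s_at, without which it was not above background. Maml2, a Mastermind coactivator gene, gave 20.1, 66.5 and 181, and the corepressor gene Spen 21.3, 204 and 123, both below background on every array. The Mastermind gene Maml1 was above background on all arrays, at 5041, 5198 and 6369 by a probe set ending in _s_at and at 382, 455 and 619 by another. Maml3 was not measured. All 4 Groucho corepressor genes, whose proteins are recruited by Hes repressors, were above background, with means of 10423 ± 2886 for Tle4, 6914 ± 1591 for Tle3 and 1850 ± 82 for Tle1 (SD, n = 3), although Tle3 was not with its probe sets averaged.

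All 9 genes of receptor turnover and inhibition were above background, although Dtx1 and Itch were not with their probe sets averaged. Numb, an inhibitor that is shared unequally between daughter cells, had a mean of 7906 ± 2043, and Fbxw7, whose product marks the Notch intracellular part for breakdown, 4294 ± 928 (SD, n = 3). By its representing probe set, Dtx4 was highest in replicate 3 (2433, 849 and 719, range 1.76). Its other probe set, also above background, was lowest there (584, 813 and 787). Dtx2 was highest in replicate 9 (1518, 2273 and 3519, range 1.21) by a probe set ending in _x_at. The other Dtx2 probe set, above background too, was lowest in that replicate (346, 385 and 324). Nrarp, a feedback inhibitor that is itself a Notch target, had signals of 4727, 4612 and 4768 in replicates 3, 8 and 9, a range of 0.05.

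Of the 6 other Hes and Hey genes, 1 was above background (61.6% of all named genes were), whereas Hes1, Hey1 and Heyl all were. That gene was Hes6, whose protein counteracts Hes1, at 3844, 3720 and 5071, from a probe set ending in _x_at without which it was not above background. Hes5, a target in neural progenitors, was above background on 1 array (318, 209 and 132), as was the somite clock gene Hes7 (210, 143 and 344), and Hey2, a target in arteries and heart, on 2 (209, 293 and 296). Hey2 counted as above background with the 90th percentile as threshold or without replicate 3, and Hes7 with probe sets averaged. Hes2 and Hes3 were below background on every array, with means of 19.2 ± 5.3 and 16.9 ± 6.1 (SD, n = 3).

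**Figure D4:**
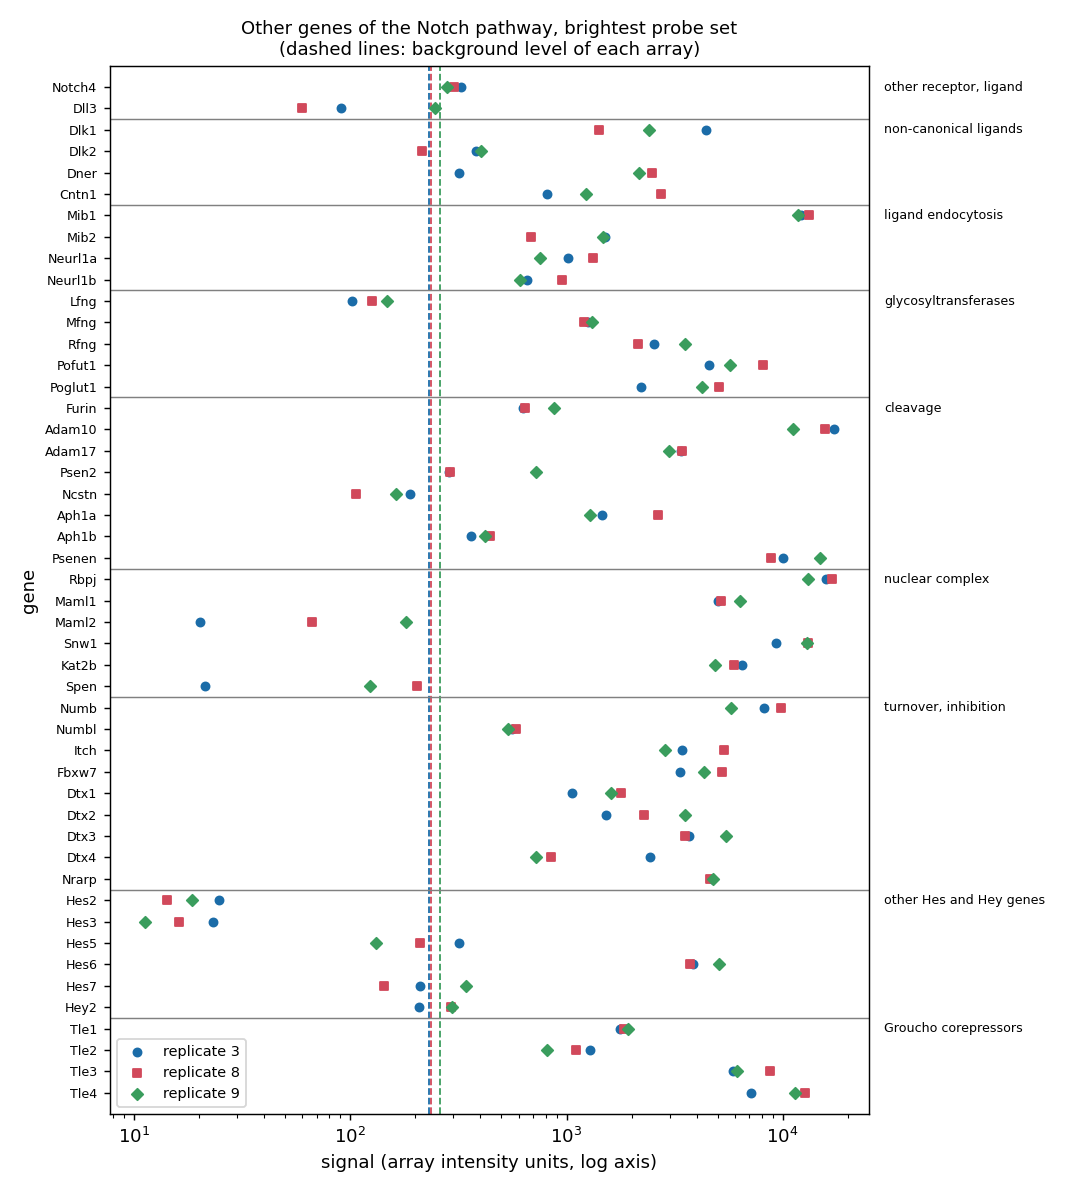
Signal (array intensity units, log axis) of the brightest probe set of 48 further Notch pathway genes in replicates 3, 8 and 9, 1 point per array, grouped by role, with dashed lines at the background level of each array. Most of the genes lie right of the lines on all arrays, while Dll3, Lfng, Ncstn, Maml2, Spen, Hes2 and Hes3 lie left of them on every array.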

How the data were processed

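The data are 3 arrays of 1 group. The deposited values are intensities, 1 linear signal per probe set and array. Per the submitters' processing notes they come from GCOS, with version and settings not given in the sources read here. The trimmed mean (2% off each end) was 1500 on every array and the medians were 234, 198 and 273 in replicates 3, 8 and 9, so arrays had been scaled to a common mean but not quantile normalized. Scaling makes each level relative to its array, and amplification from the 3′ end can leave distant probe sets dim.

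Of 45101 probe sets, 34958 had 1 gene symbol in the platform annotation and 0 with several symbols named a Notch gene. Signals were taken as log2(signal + 1), and each gene was read from the probe set whose mean was highest. Background was the 95th percentile of 54 listed reference genes (49 measured, 0 of them above it on all arrays). Pearson's r between arrays was 0.940 to 0.952 across 11205 genes above background, which are not independent replicates. The calls were tested on simulated data in which expressed genes lay well above background, so calls near background were not tested there. The Notch genes and all lists were chosen with earlier results of these data known. Named pathway genes are up to 3 per role with the highest mean, those not above background, those with a range of at least 1, and Maml1 beside Maml2. Some pathway genes are not reported here. Alternatives covered normalization, pseudocounts of 16 and 64, probe set choice, thresholds, reference genes, centring and leaving out each replicate. Python 3.11.15 with pandas 2.3.3 and NumPy 2.4.6 was used.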

Additional observations from a re-analysis of the deposited data

How the results depend on the processing

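The counts of Notch genes above background (8 to 10 of 10), of pathway genes above background (34 to 39) and of Notch genes with probe sets on both sides of background (5 or 6) stayed within 1.5 times their values in every alternative run. An alternative with exocrine pancreas genes added to the reference genes was chosen after seeing the data. The count of Notch genes with a log2 range of at least 1 fell from 2 to 1 with pseudocounts of 16 and 64 and with the array median deviation taken off, where Dll1 left it (0.99, 0.93 and 0.97), and to 1 when probe sets ending in _x_at or _s_at were left out, where Notch3 was no longer above background. Leaving out each replicate gave counts from 0 to 1. Without replicate 8 the count was 0 (Notch3 0.28, Dll1 0.99). It was 1 without replicate 3 (Dll1, with Notch3 at 0.75) and 1 without replicate 9 (Notch3). A range over fewer arrays cannot be wider, so these lower counts do not single out the Notch genes. The share of all genes above background with such a range fell as well, from 16.2% to 7.31% without replicate 3. That share was 8.88% without replicate 8 and 7.35% without replicate 9. With a gene's probe sets averaged the count of Notch genes was 3, with Notch2 added (1.40), against 19.03% of all genes above background. In that alternative 7 of 10 mean levels moved by more than the SD. Reference genes without exocrine pancreas, and the second reference list, were not run as alternatives, since the list used is that one. No paired analysis was possible because the series has 1 group. Signals near background limit Dll4 and Jag2 most.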
